A study of Mus musculus with 27 samples.

Results

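The collagen genes were taken as every entry whose symbol reads Col, a chain number, the letter a and a second number, which left out look-alike names such as Colq, Colec and Colgalt genes. They numbered 44 in all, with 43 of the 27316 genes of the embryo and adult table, 41 of the 23597 genes of the organoid table and 44 of the 27179 entries of the tumour table. Col26a1 was listed for tumours only, and Col11a1 and Col13a1 were not listed for organoids. RNA-seq covered 27 mouse libraries in 9 groups of 3, and it addressed how gene expression in the gut differs after loss of Taf4, which belongs to the TFIID complex that helps RNA polymerase II start transcription. KO and WT intestine came from E17.5 embryos and KO and WT ileum from adults at 8 weeks, all on a C57Bl6/129sv background. Per the labels the KO mice had received tamoxifen and the WT mice sunflower oil. The study's methods instead give Taf4lox/lox::VilCre embryos with Taf4lox/lox littermates, and Taf4lox/lox::VilCreERT2 adults with Taf4lox/lox controls, the adults all given tamoxifen. Which description holds was not settled. Organoids were grown from ileal crypts of the same strain, from 4-month-old donors where the labels give an age, in control (ethanol per the labels, 3 days), 4-OHT (1 µM, 3 days) and 4-OHT plus EPZ (1 µM, an inhibitor of the Polycomb methyltransferase Ezh2) cultures. The EPZ cultures were labelled as grown for 11 days, so that time in culture differed from the other groups. The methods give a later day for them, and name as controls Taf4lox/lox cultures that were also treated with 4-OHT, not ethanol cultures. One 4-OHT library lacked the treatment statement in its protocol. The tumours came from the ileum of mice with the Apc d14 allele on a mixed 129SV and C57Bl/6 background, either Taf4 KO (Taf4 KO Apc) or Taf4+/+ (Apc), after tamoxifen at 6 to 8 weeks of age. The villin promoter of these Cre lines is active in the intestinal epithelium and not in the connective tissue below it, so that the deletion is aimed at epithelial cells.

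Collagens are triple helices of 3 alpha chains, each chain the product of its own gene. Fibrillar collagens (types I, III and V foremost) form the tensile fibrils of the connective tissue, type IV the network of the basement membrane on which the epithelium rests, type VI the beaded filaments around cells, and type VII the anchoring fibrils that tie a basement membrane to the fibrils below it. FACIT collagens decorate fibrils, and types XV and XVIII (multiplexins) are proteoglycan collagens of basement membrane zones. In the gut wall most collagen is made by fibroblasts and smooth muscle cells, whereas organoids grown from crypts hold epithelium alone.

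RefSeq promoter sequences on GRCm38.p6, which run from 250 bases before to 50 bases after a gene's start, were found for 35 of the 44 genes, with 38 promoters in all. The 100 bases before the start are shown for 6 genes. The first 3 are the genes that organoids and whole ileum shared and that had a sequence. The other 3 code for chains of types I, III and IV that made up much of the stromal signal. Capitals mark a GC box (GGGCGG or its reverse complement CCGCCC) or a CCAAT box (CCAAT or ATTGG), and Col20a1, Col1a2 and Col3a1 have neither in this stretch.
Col7a1 chr9:108953486-108953585 (+ strand): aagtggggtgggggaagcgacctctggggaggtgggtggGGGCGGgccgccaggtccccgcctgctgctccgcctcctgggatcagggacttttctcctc
Col11a2 chr17:34039038-34039137 (+ strand): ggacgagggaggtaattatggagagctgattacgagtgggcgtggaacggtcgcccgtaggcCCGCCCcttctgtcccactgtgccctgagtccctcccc
Col20a1 chr2:180986435-180986534 (+ strand): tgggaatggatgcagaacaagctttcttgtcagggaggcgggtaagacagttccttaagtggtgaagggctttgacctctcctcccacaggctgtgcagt
Col1a2 chr6:4505518-4505617 (+ strand): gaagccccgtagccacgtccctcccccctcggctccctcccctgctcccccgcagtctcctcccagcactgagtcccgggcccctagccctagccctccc
Col3a1 chr1:45311438-45311537 (+ strand): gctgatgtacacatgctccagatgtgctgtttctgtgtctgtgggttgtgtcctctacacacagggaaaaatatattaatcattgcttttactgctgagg
Col4a2 chr8:11312705-11312804 (+ strand): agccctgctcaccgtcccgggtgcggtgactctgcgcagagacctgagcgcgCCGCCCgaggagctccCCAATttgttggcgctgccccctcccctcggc

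Within the whole 300-base windows a GC box stood in 23 of the 38 collagen promoters (60.5%), and in 35.7% of all 32851 promoters of the table. It was found in 2 of the 3 shared promoters, in 17 of the 24 stromal ones (70.8%) and in 4 of the 11 of genes that were low in both tissues (36.4%). A CCAAT box was found in 34.2% of the collagen promoters and in 37.4% of all, and a TATA box (TATAAA or TTTATA) in 13.2% of the collagen promoters and in 13.6% of all. Each motif was searched on both strands, none of the 3 motifs contains another, and a match is a description of these windows only. The 6 type IV genes lie in 3 pairs, head to head on mm9. Col4a1 (chr8:11198423-11312826, minus strand) and Col4a2 (chr8:11312805-11449287, plus strand) overlap by 22 bases at their starts. Col4a4 (chr1:82447298-82583424, minus strand) and Col4a3 (chr1:82583496-82718634, plus strand) start 71 bases apart, and Col4a6 and Col4a5 on chromosome X start 1308 bases apart.

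For embryos, adults and organoids only the authors' mean of normalized counts per group was available, 1 value per gene and group, so that these comparisons have no error, no n and no test. They are given as log2 ratios of the means after adding 1, and a gene was counted where its higher mean was at least 20. The means summed to between 11937500 and 16583200 per group, and depth per library is unknown. The tumour libraries had FPKM (fragments per kilobase of gene, scaled to the depth of the library) per library, with 23017312 to 39237670 reads behind them, as recovered from the whole-read steps of the values. Taf4 averaged 13.5 ± 0.46 FPKM in Taf4 KO Apc and 11.1 ± 0.48 FPKM in Apc tumours (SD, n = 3 each), and Taf4b 3.36 ± 0.55 FPKM in Taf4 KO Apc and 2.68 ± 0.46 FPKM in Apc tumours. The Taf4 mean (listed as Taf4a) was 299.5 normalized counts in embryo KO and 226 in embryo WT, 494 in adult KO and 373 in adult WT, and 264 in control, 286 in 4-OHT and 201 in EPZ organoids. The KO-labelled groups were therefore not low in Taf4 reads over the whole gene, a value that cannot show the loss of single exons. Taf4 KO Apc replicate 3 carries in its label the animal numbers of both other Taf4 KO Apc libraries and may be a pool of them. Its value lay between theirs for 63.5% of 13794 genes and for 21 of 24 collagen genes tested, against 16.6% to 40.3% of genes for each of the other 5 libraries. The tumour summary is therefore also given without it.

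Collagen RNA was nearly absent from organoids. The 41 listed genes together had 10.6 CPM in control organoids (normalized counts scaled to the same total in every group), 11.2 in 4-OHT and 6.06 in EPZ organoids. In whole tissue the collagens summed to 2088 CPM in adult KO and 2293 in adult WT ileum, and to 20783 CPM in embryo KO and 11284 in embryo WT intestine. The epithelium markers (10 genes such as Epcam and Vil1) were plentiful in all groups, with 10870 CPM in control organoids and 20082 in adult WT ileum. The fibroblast markers summed to 9.81 CPM in control organoids, of which Ly6a, also made by epithelial cells, gave 8.48, against 221 in adult WT ileum, of which Ly6a gave 104. Sums without Ly6a, chosen after seeing the data, were 1.33 CPM in control organoids and 117 in adult WT ileum. The tables of organoids and of tissue were normalized separately, so only shares of each table's total are set side by side.

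A gene was called stromal where adult WT ileum held at least 1 CPM and control organoids under 10% of that share, epithelial where organoids held at least 1 CPM and no less than ileum, shared where it lay between, and low where both were under 1 CPM. By this rule 27 genes were stromal, 4 shared, 13 low and none epithelial. A gene not listed in a table was entered at 0, which bears on Col13a1 (stromal), Col11a1 and Col26a1 (both low). The shared genes were Col7a1, the sole chain of the anchoring fibrils; Col4a3, a type IV chain of specialised basement membranes; Col20a1, a FACIT chain; and Col11a2, a minor fibrillar chain of cartilage. Col20a1 had 1.78 CPM in control organoids and 55.7% of its share of adult WT ileum. Per length of merged exons it had the highest level of any collagen in all 3 organoid groups. Col7a1 had 0.977 CPM and 31.5%, Col11a2 0.278 CPM and 24.7%, and Col4a3 0.448 CPM and 12.0%. Their means in control organoids were 24.9, 13.7, 3.89 and 6.27 normalized counts, in that order, so that these shares rest on few reads.

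The stromal genes that led in whole tissue were close to the floor in organoids. Col1a1, the main chain of type I collagen, had 2.07 CPM in control organoids, the highest count of any collagen there, and this was 0.24% of its share of adult WT ileum. For Col1a2, the partner of Col1a1, the figure was 0.07%, for Col3a1 (type III) 0.08%, for Col6a1 0.08% and for Col6a3 0.05%. Col4a1 and Col4a2, the chains of the common basement membrane network, stood at 0.23% each. Among the stromal genes the share was highest for Col27a1, a minor fibrillar chain, at 6.24%, Col18a1, the source of endostatin, at 2.51%, and Col16a1, a FACIT chain, at 1.49%. Col9a1, a FACIT chain known from cartilage, was the one gene with at least 0.3 CPM in control organoids that had more there (0.780 CPM) than in adult WT ileum, which listed 1.29 normalized counts. It was low by the rule used and became epithelial where the floor was set at 0.3 CPM.

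**Figure D1:**
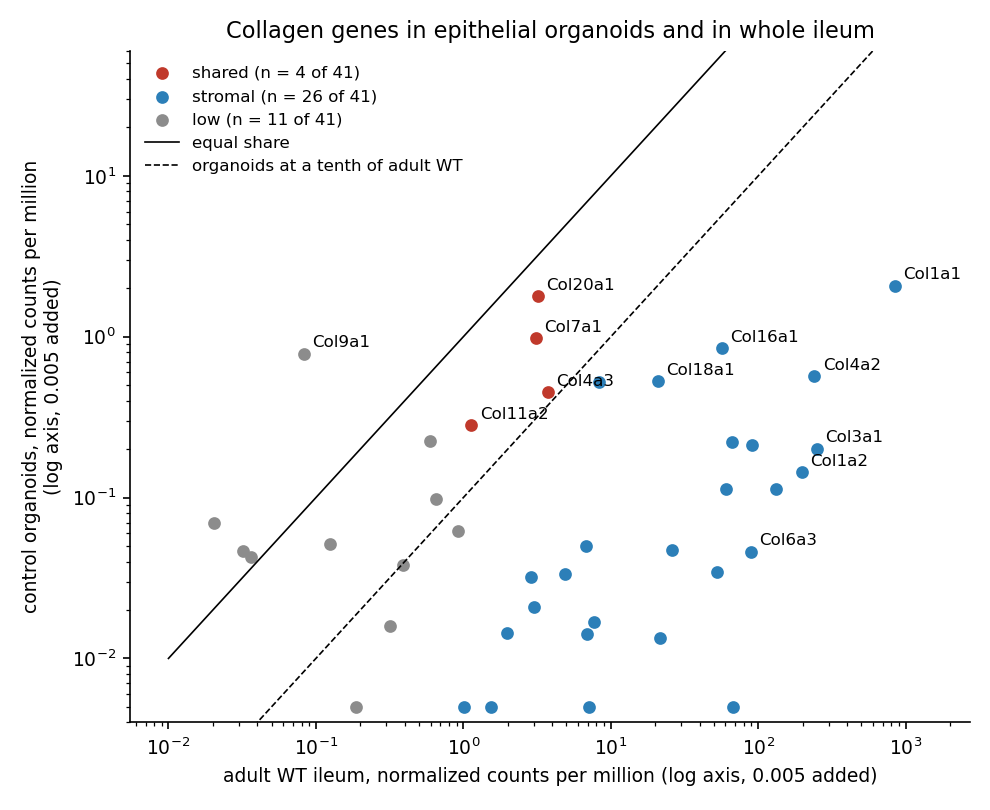
Share of each of the 41 collagen genes listed in both tables, as CPM, in control organoids (vertical, log axis) and in adult WT ileum (horizontal, log axis), coloured by source class; the lines mark equal shares and 10%. Of the genes with at least 1 CPM in ileum, Col20a1, Col7a1, Col4a3 and Col11a2 lie between the lines, while Col1a1, at 2.07 CPM in organoids, is far to the right of them.

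Per length of merged exons, the order of the collagens was much the same in the 4 tissue groups. Col1a1 led in each, with 1746 CPM per kilobase in embryo KO, 876 in embryo WT, 105 in adult KO and 129 in adult WT. Col4a2, Col6a1 and Col3a1 came next in each group, in that order, at 218, 181 and 168 CPM per kilobase in embryo KO and at 36.4, 30.2 and 29.9 in adult WT. This order below Col1a1 rests on the merged-exon lengths and may differ with another gene model. Merged exons gave 8393 bases for Col3a1 and 12145 for Col1a2, where the tumour values went with 5564 and 5143. Col6a1 and Col3a1 stood at 93.7 each in embryo WT, and with 1 mean per group it cannot be said whether such close neighbours differ. Col1a1 alone made up 55.1% of all collagen counts in embryo KO, 50.9% in embryo WT, 32.9% in adult KO and 37.1% in adult WT. In tumours, on the FPKM scale, Col4a1 led at a mean of 41.4 FPKM over the 6 libraries, before Col1a1 at 37.9 and Col3a1 at 31.4.

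In embryonic intestine the stromal collagens were higher in KO than in WT, and 3 of the 4 shared ones lower. These classes rest on adult ileum. With embryo WT intestine as the whole tissue Col7a1 was stromal and Col11a2 low. Of the 27 stromal genes 26 had a higher mean in KO, with a median log2 difference of 0.64 (1.56-fold), against a median of 0.04 over all 14682 genes counted. None of them passed 2-fold. Of the 36 collagen genes counted, 0 were past 2-fold higher in KO and 2 past 2-fold lower, Col7a1 and Col4a3. Over all genes 1.32% were past 2-fold higher and 7.47% lower. Col7a1 had a mean of 75.3 normalized counts in embryo KO and 232 in embryo WT, a log2 difference of -1.61. Col4a3 had 16.6 in KO and 38.5 in WT (-1.17), and its head-to-head neighbour Col4a4, below the count needed, 2.27 in KO and 5.88 in WT. The other low ones were Col20a1, at 26.5 in KO and 32.6 in WT, and Col18a1, at 674 in KO and 728 in WT. The shared gene Col11a2, below the count needed, had 14.1 in KO and 10.0 in WT.

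The stromal collagens with the largest differences belonged to several families. Col14a1, a FACIT chain that binds fibrils through decorin, had 1322 normalized counts in embryo KO and 669 in embryo WT (log2 0.98), and Col1a1 136787 in KO and 75373 in WT (0.86). Col6a2 had 5916 in KO and 3303 in WT (0.84), Col5a1, which sets fibril diameter, 4187 in KO and 2351 in WT (0.83), and Col6a1 9491 in KO and 5402 in WT (0.81). By family the median log2 difference was 0.73 for the 6 type VI genes, 0.68 for the 7 FACIT genes counted, 0.23 for the 5 type IV genes counted, and 0.05 for the multiplexins Col15a1 and Col18a1. Col4a1 had 8360 in KO and 6111 in WT (0.45), and Col4a2 17226 in KO and 12347 in WT (0.48). The difference was thus smaller for basement membrane chains than for type VI and FACIT chains, as a description of single means.

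Markers of whole cell types differed in the same libraries. The 11 fibroblast markers summed to 428 CPM in embryo KO and 265 in embryo WT, the 10 smooth muscle markers to 6690 in KO and 4284 in WT, and the endothelium and pericyte markers to 379 in KO and 276 in WT. The epithelium markers summed to 5327 CPM in KO and 8118 in WT, and all 10 had a lower mean in KO (median log2 -0.48). The median log2 difference was 0.49 both for fibroblast and for smooth muscle markers. The part of these shifts in the collagen values was not tested. In such bulk samples fewer cells of a type and less RNA per cell cannot be told apart. The total of the means was 11937500 in KO and 13117100 in WT. Set to equal totals, the median over all genes moved to 0.17 and that of the collagens to 0.67, and Col14a1 (1.12) and Col6a6 (1.05), a type VI chain with 78.7 normalized counts in KO and 41.2 in WT, then passed 2-fold.

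**Figure D2:**
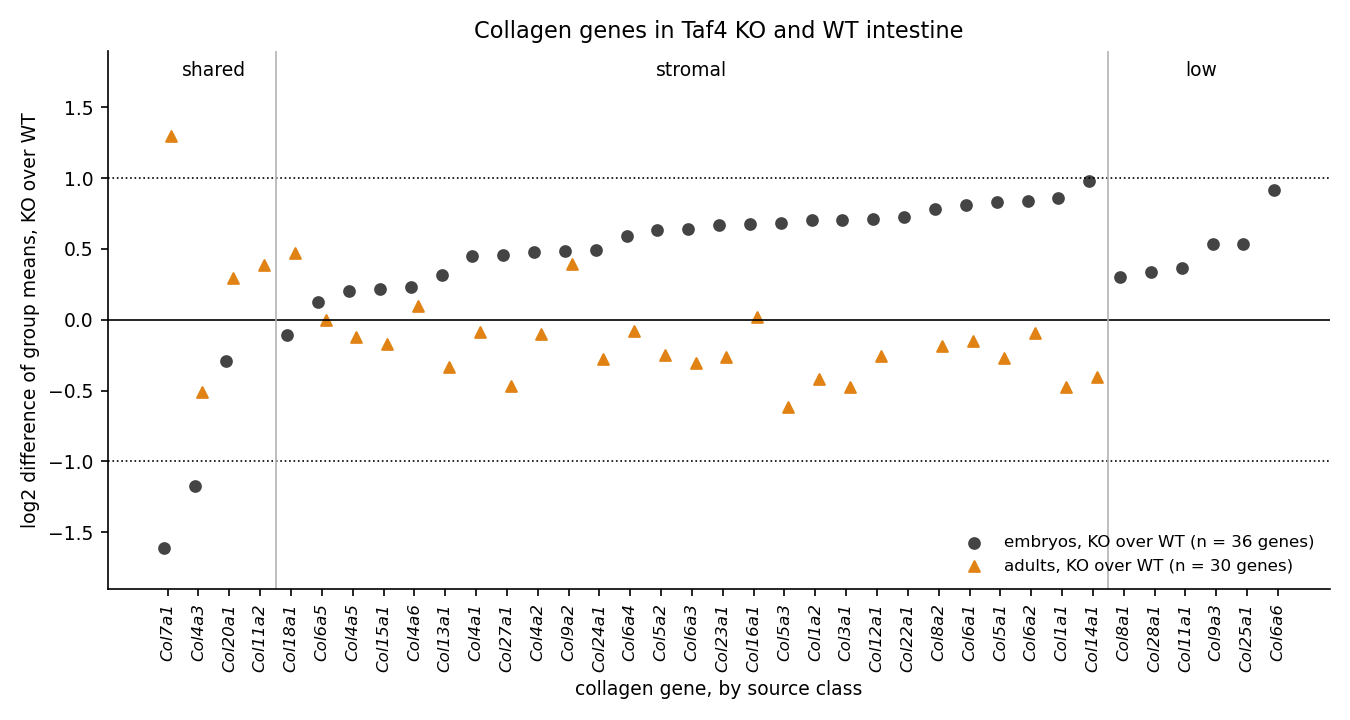
Log2 difference of the authors' group means, KO over WT, for the collagen genes with at least 20 normalized counts in the higher mean, in embryos (circles) and adults (triangles), grouped by source class; each point is 1 pair of means, the dotted lines mark 2-fold and there are no error bars because no library values were available. Embryo points of stromal genes lie above 0 but for Col18a1, and Col7a1 lies at -1.61 in embryos and at 1.30 in adults.

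In adult ileum the stromal collagens were somewhat lower in KO than in WT, and Col7a1 higher. Of 30 collagen genes counted 1 was past 2-fold higher in KO and 0 past 2-fold lower, where 2.66% of all genes were past 2-fold higher and 5.93% lower. Col7a1 had a mean of 128 normalized counts in adult KO and 51.5 in adult WT, a log2 difference of 1.30. Of the 26 stromal genes counted 22 had a lower mean in KO, with a median log2 difference of -0.21, against -0.04 over all 14951 genes. The adult WT mean also defined the stromal class, so that this count is not independent of the class. Col5a3, a minor type V chain, stood lowest, at 82.5 in KO and 127 in WT (-0.62). Col1a1 had 10133 in KO and 14093 in WT (-0.48), Col3a1 2985 in KO and 4157 in WT (-0.48), and Col1a2 2442 in KO and 3270 in WT (-0.42). The type VI genes were near level, with a median of -0.10. Col18a1 was higher in KO, at 483 against 347 in WT (0.47), and Col4a3 lower, at 43.0 against 61.7 in WT (-0.51).

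The adult direction of the stromal genes was not steady to scaling. The means summed to 14731100 in adult KO and 16583200 in adult WT, and set to equal totals the median over all genes was 0.12 and the median over the 30 collagens -0.01, with 14 above and 16 below 0. Col7a1 stayed past 2-fold under each of the 5 alternatives tried. The fibroblast markers summed to 184 CPM in adult KO and 221 in adult WT, of which Ly6a gave 61.6 in KO and 104 in WT. Without Ly6a they summed to 122 in KO and 117 in WT, so that the direction of the sum rested on that gene. The smooth muscle markers summed to 2582 in KO and 2650 in WT. The epithelium markers summed to 21396 CPM in KO and 20082 in WT. On the normalized counts, before scaling to CPM, 3 of the 10 fibroblast markers counted had a higher mean in KO (median log2 -0.28). The same held for 3 of the 10 smooth muscle markers (-0.13) and 4 of the 10 epithelium markers (-0.12). Whether these shifts bear on the collagen values was not tested.

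Col7a1 therefore had opposite signs at the 2 ages, at 75.3 in KO and 232 in WT embryos and at 128 in KO and 51.5 in WT adults. Whether the 2 differences differ could not be tested on single means. Its partner molecules in the epithelial anchoring complex, hemidesmosome genes and laminin chains, were measured in the same groups. Of the 5 hemidesmosome genes 1 was past 2-fold lower in embryo KO, where 7.47% of all genes were, and 1 had a higher mean (median log2 -0.28). Itga6 had 851 normalized counts in embryo KO and 810 in embryo WT (0.07), and Plec (-0.20) and Cd151 (-0.28) were slightly lower. Itgb4, the beta 4 integrin chain, had 187 normalized counts in embryo KO and 408 in embryo WT (log2 -1.12), and 1016 in adult KO and 1054 in adult WT. Lama3, a chain of the laminin that binds type VII collagen, had 41.4 in embryo KO and 119.7 in embryo WT (-1.51), and 94.8 in adult KO and 424 in adult WT (-2.15). Lama3 was thus past 2-fold lower in KO at both ages, unlike Col7a1. Another laminin chain, Lamb3, was higher in embryo KO, at 82.0 against 53.0 in embryo WT (0.62), and lower in adult KO (-1.36).

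Between ages in WT mice nearly every collagen was lower in the adult. Of 36 genes counted, 30 were past 2-fold lower in adult WT than in embryo WT and 0 past 2-fold higher, where 14% of all 15586 genes were past 2-fold lower and 17.7% higher. The median log2 difference was -1.67 for the collagens and 0.02 for all genes. The tissue sampled differed with age, embryonic intestine against adult ileum. Col1a1 had 14093 normalized counts in adult WT and 75373 in embryo WT, Col1a2 3270 in adults and 8565 in embryos, and Col3a1 4157 in adults and 10317 in embryos. For type V, Col5a1 had 431 in adults and 2351 in embryos, and Col5a2 866 in adults and 2347 in embryos. Of the minor fibrillar chains Col24a1 had 117 in adults and 297 in embryos, and Col27a1 138 in adults and 456 in embryos. The fibrillar genes as a family had a median of -1.44, with 8 of 9 past 2-fold lower.

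The other families followed. All 6 type VI genes were past 2-fold lower in adults, from Col6a3 (1484 in adults and 3510 in embryos) and Col6a1 (2198 in adults and 5402 in embryos) to Col6a5 (32.7 in adults and 422 in embryos, log2 -3.65), with Col6a2 at 999.9 in adults and 3303 in embryos and Col6a4 at 1095 in adults and 5942 in embryos. In type IV, Col4a1 had 1504 in adults and 6111 in embryos, Col4a2 3992 in adults and 12347 in embryos, and Col4a5 81.5 in adults and 213 in embryos. Among FACIT chains Col12a1 had 360.0 in adults and 1268 in embryos, Col14a1 114 in adults and 669 in embryos, Col16a1 944 in adults and 3404 in embryos, and Col22a1, known from tissue junctions, 16.7 in adults and 179.7 in embryos. Col9a2, a type IX chain of cartilage, had 25.5 in adults and 428 in embryos, the largest difference of a stromal gene (log2 -4.02). Transmembrane Col13a1 (67.1 in adults and 163 in embryos) and Col23a1 (113 in adults and 312 in embryos), the multiplexins Col15a1 (1121 in adults and 3069 in embryos) and Col18a1 (347 in adults and 728 in embryos), network-forming Col8a1 (15.1 in adults and 83.3 in embryos) and Col7a1 (51.5 in adults and 232 in embryos) were also past 2-fold lower in adults.

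A few genes went the other way or were near level. Col5a3 had 127 normalized counts in adult WT and 64.1 in embryo WT (log2 0.98), Col4a3 61.7 in adults and 38.5 in embryos (0.67), and Col20a1 53.0 in adults and 32.6 in embryos (0.68). Of the shared genes counted 2 of 3 were thus higher in adults, against 1 of 27 stromal genes. Both classes were defined with the adult WT means, so that these counts are not independent of them. Col4a6, of the type IV chain set found under epithelia and smooth muscle, had 50.3 in adults and 83.1 in embryos and passed 2-fold only with equal totals (-1.05). Col8a2, a short-chain network collagen, had 47.9 in adults and 75.9 in embryos. Epithelium markers summed to 20082 CPM in adult WT and 8118 in embryo WT, smooth muscle markers to 2650 in adults and 4284 in embryos, and fibroblast markers to 221 in adults and 265 in embryos. Without Ly6a the fibroblast sum was 117 CPM in adults and 262 in embryos. The collagen sum was 2293 CPM in adults and 11284 in embryos.

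**Figure D3:**
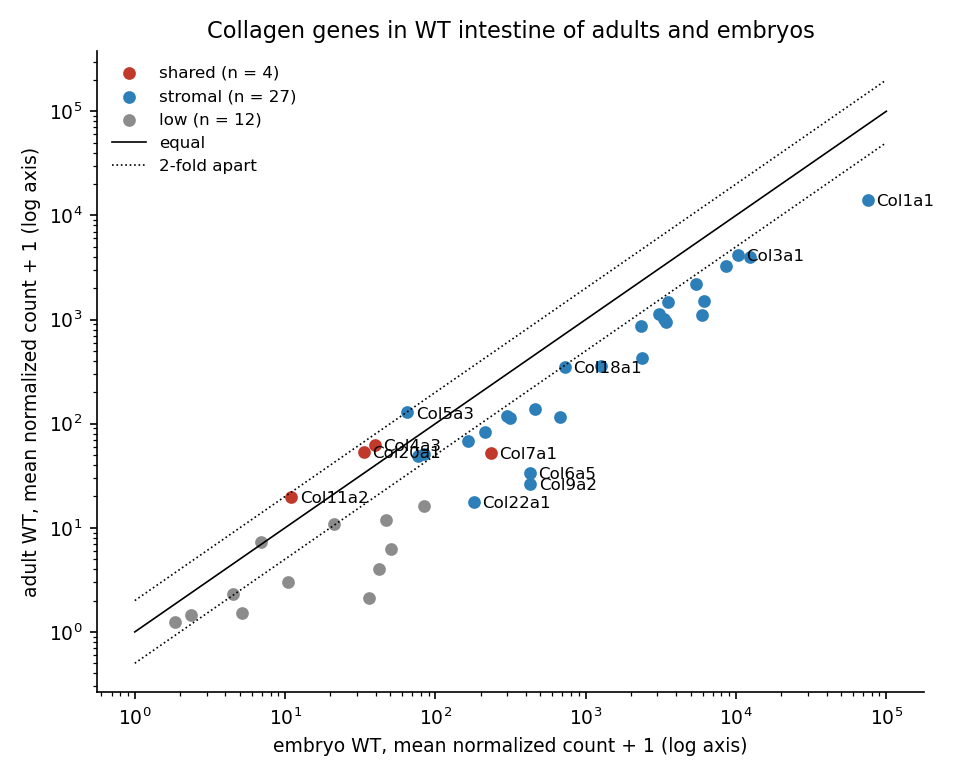
Mean normalized count plus 1 of 43 collagen genes in adult WT ileum (vertical, log axis) and embryo WT intestine (horizontal, log axis), coloured by source class, with lines at equality and at 2-fold; each point is 1 pair of means. Most points lie below the lower dotted line, and Col5a3, Col4a3, Col20a1 and Col11a2 are among those above the line of equality.

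In organoids few collagens were high enough to compare. Against control, 4 genes were counted in 4-OHT organoids, of which 2 were past 2-fold higher and 0 lower, where 10.7% of all 12497 genes were past 2-fold higher and 10.4% lower. In the order control, 4-OHT and 4-OHT plus EPZ, Col7a1 had 13.7, 45.1 and 19.8 normalized counts, and Col4a3 6.27, 22.1 and 13.8. The log2 difference of 4-OHT over control was 1.65 for Col7a1 and 1.67 for Col4a3. Col20a1 had 24.9, 34.3 and 19.6, and Col11a2 3.89, 7.22 and 1.59. All 4 shared genes were thus highest in 4-OHT organoids. The epithelium markers also had their highest sum there, at 10870, 17181.5 and 11742 CPM in the same order. Of these 10 markers 8 had a higher mean in 4-OHT than in control (median log2 0.52), and whether this bears on the shared genes was not tested. With EPZ over 4-OHT, 0 of 3 genes counted were past 2-fold higher and 1 past 2-fold lower, Col7a1 (-1.15), where 16.4% of all 12716 genes were past 2-fold higher and 16.7% lower. Col7a1 and Col4a3 reached the floor of 20 only in 4-OHT, the group in which they were high, so the count of 2 higher is no support for a direction, and with a floor of 5 there were 2 higher and 4 lower. Both comparisons use the 4-OHT means, so that their opposite signs are not independent of each other.

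Most stromal genes among the 8 collagens highest in control organoids had their maximum in control. They were chosen by their control means, which also entered the classes, so this is no support for a direction. Col1a1 had 29.0 in control, 14.4 in 4-OHT and 3.13 in EPZ organoids, Col4a2 7.86, 3.34 and 0.56, Col16a1 11.9, 1.86 and 8.80, and Col27a1 7.26, 1.12 and 2.31. Col18a1 was near level at 7.36, 8.82 and 9.36. Col9a1, of the low class, had 10.9, 1.58 and 5.43. For EPZ over control 2 genes were counted, with 1 past 2-fold lower, Col1a1 (-2.86), and 0 higher, where 11.8% of all 12601 genes were past 2-fold lower and 11.2% higher. Apart from Col1a1 and the shared genes Col7a1, Col4a3 and Col20a1, no collagen reached 20 normalized counts in any organoid group. The fibroblast markers summed to 9.81, 11.4 and 69.8 CPM in control, 4-OHT and EPZ organoids, of which Ly6a gave 8.48, 8.76 and 68.6. Smooth muscle markers summed to 26.03, 31.2 and 12.9 CPM, and their part in the collagen counts was not tested.

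**Figure D4:**
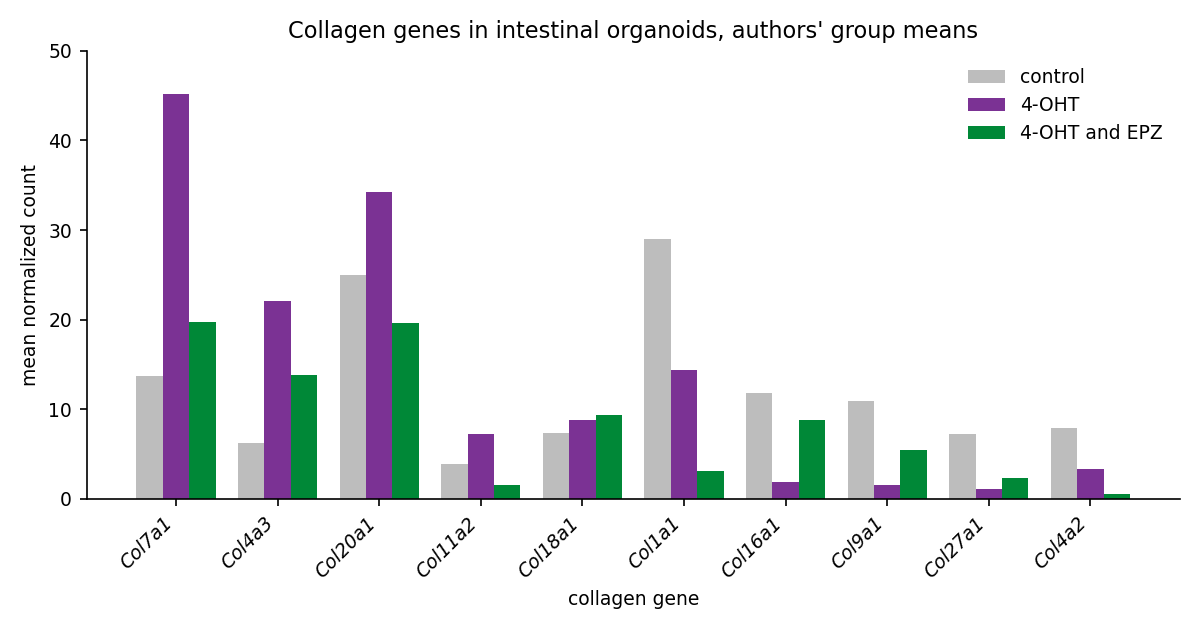
Authors' mean normalized count of 10 collagen genes in control, 4-OHT and 4-OHT plus EPZ organoids; bars start at 0, each bar is 1 mean and no error can be given. Col7a1 (13.7, 45.1 and 19.8) and Col4a3 (6.27, 22.1 and 13.8) are highest in 4-OHT, and Col1a1 (29.0, 14.4 and 3.13) in control.

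In tumours no collagen gene passed the test. Of the 44 genes, 24 passed the floor of 1 FPKM as a mean of either group and were tested by limma on log2(FPKM + 1), with Benjamini-Hochberg adjustment over 13794 genes. Of these 24, 0 were called at an adjusted p under 0.05 with a log2 difference beyond 1, where 0.217% of all genes were called higher and 0.797% lower. At an adjusted p under 0.05 alone the count was also 0 of 24, where 2.23% of all genes passed. At an unadjusted p under 0.05 1 gene was lower in Taf4 KO Apc, against 7.12% of all genes, and 0 were higher, against 20.7%. The median log2 difference was 0.18 for the collagens and 0.14 for all genes. Without Taf4 KO Apc replicate 3 0 collagens were called by limma (lowest adjusted p 0.433, 0 at an unadjusted p under 0.05), and 0 genes of the whole table. The labels give animal numbers but no statement on independent samples, so these p-values measure the spread between the libraries as deposited.

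The fibrillar and basement membrane chains of the stroma spanned a wide range within each group. Col1a1 had 62.6, 26.7 and 46.3 FPKM in Taf4 KO Apc replicates 1 to 3, against 39.9, 37.2 and 14.4 FPKM in Apc replicates 1 to 3. The groups overlapped, and Apc replicate 3 was the lowest of all 6. The log2 difference was 0.60 ± 0.46 (SE, limma, adjusted p = 0.42). Col4a1 had 60.8, 30.7 and 46.9 FPKM in Taf4 KO Apc, against 46.8, 45.4 and 17.7 FPKM in Apc tumours, a log2 difference of 0.39 ± 0.42 (SE, limma, adjusted p = 0.56). Col4a2 followed the same library order in Taf4 KO Apc, with 41.4, 21.0 and 32.1 FPKM, against 31.2, 34.1 and 12.2 FPKM in Apc tumours. Col3a1 had 43.0, 24.9 and 35.8 FPKM in Taf4 KO Apc, against 36.9, 36.3 and 11.4 FPKM in Apc tumours. Again Apc replicate 3 was lowest and Taf4 KO Apc replicate 1 highest.

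Col1a2 had 31.8, 17.1 and 25.4 FPKM in Taf4 KO Apc tumours, against 30.1, 22.1 and 9.66 FPKM in Apc tumours. Col6a1 had 28.1, 13.0 and 22.6 FPKM in Taf4 KO Apc, against 21.1, 30.2 and 8.87 FPKM in Apc, and Col18a1 32.7, 15.2 and 25.9 FPKM in Taf4 KO Apc, against 20.3, 31.1 and 13.5 FPKM in Apc tumours. For each of these 3 the groups overlapped. Apc replicate 3 was the lowest library for 16 of the 20 stromal genes tested, and for 17 of the 24 collagens. How often it was the lowest over all genes was not computed. Without Apc replicate 3 the median log2 difference was -0.12 for the collagens and 0.11 for all genes. Col1a2, Col3a1, Col4a1, Col4a2, Col5a2, Col6a1, Col6a2, Col6a3 and Col18a1 were among the collagens then below 0. The highest library exceeded the lowest by a median of 3.42-fold over the stromal genes tested. Col16a1 was the most extreme, at 4.66, 2.88 and 4.21 FPKM in Taf4 KO Apc, against 21.4, 4.79 and 2.55 FPKM in Apc tumours. Apc replicate 1 alone set its direction there, since the log2 difference was -0.67 with it and 0.10 without it.

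A pair of type IX chains was not low in Apc replicate 3, which also held for Col27a1 (107.3% of the mean of the other Apc libraries). In Taf4 KO Apc their libraries stood in the same order as those of Col1a1. Col9a3 had 31.0, 18.1 and 27.3 FPKM in Taf4 KO Apc tumours, against 23.3, 27.2 and 23.5 FPKM in Apc tumours, a log2 difference of 0.01 ± 0.20 (SE, limma, adjusted p = 0.97). It was the fifth highest collagen of the tumours, and Apc replicate 3 had 93.2% of the mean of the other Apc libraries, where Col1a1 had 37.3%. Col9a2 had 7.10, 3.15 and 6.64 FPKM in Taf4 KO Apc, against 4.40, 4.83 and 4.16 FPKM in Apc tumours. In tissue Col9a3 had been low, at 9.77 normalized counts in adult WT ileum and 20.3 in embryo WT intestine, and at 3.10 in control organoids. Per length, Col9a3 stood at 4.11 to 5.73 times Col9a2 in the 6 tumours, and at 0.25 times in adult KO, 0.31 times in adult WT and 0.04 times in each embryo group. The tumour table was made with another annotation or build, and no normal ileum was measured in it, so no test of tumour against normal tissue can be made.

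The genes tested whose groups did not overlap were Col14a1 and Col11a2, both lower in Taf4 KO Apc, 2 of the 24 tested, where 8.5% of all genes did not overlap with lower values and 26.9% with higher values. They are named because of this, after their values were seen. Col14a1 had 2.33, 2.58 and 1.95 FPKM in Taf4 KO Apc, against 4.11, 3.54 and 2.70 FPKM in Apc tumours, a log2 difference of -0.43 ± 0.17 (SE, limma, unadjusted p = 0.042, adjusted p = 0.17). Col11a2 had 0.95, 0.85 and 0.98 FPKM in Taf4 KO Apc, against 2.60, 1.29 and 1.24 FPKM in Apc tumours (-0.46 ± 0.23 SE, limma, adjusted p = 0.24). Col7a1 was level, at 1.55, 1.14 and 1.69 FPKM in Taf4 KO Apc, against 1.37, 1.61 and 1.101 FPKM in Apc tumours (0.06 ± 0.17 SE, limma, adjusted p = 0.83), on 279 to 493 reads per library. Col4a3 lay between 0.05 and 0.18 FPKM in Taf4 KO Apc and between 0.04 and 0.12 FPKM in Apc tumours, on 10 to 40 reads, and was not tested.

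**Figure D5:**
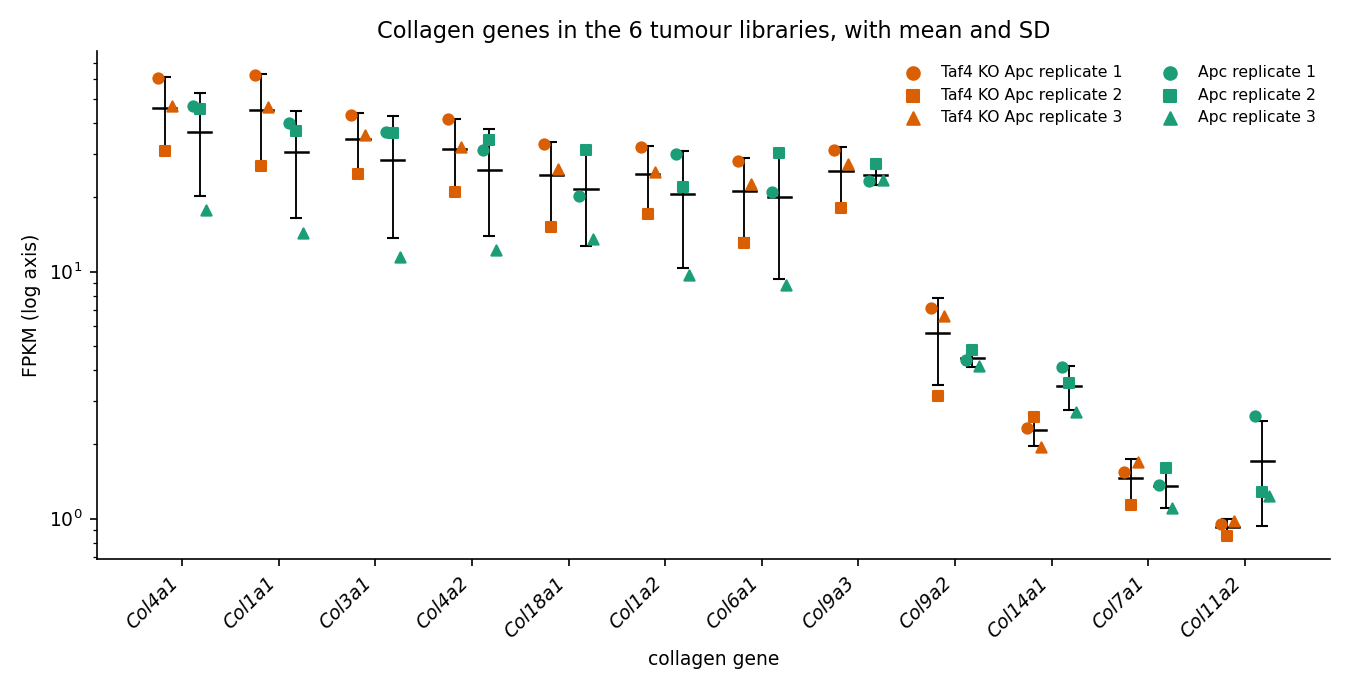
FPKM (log axis) of 12 collagen genes in each Taf4 KO Apc library (left of each pair) and each Apc library (right), with the mean and SD of each group (n = 3 each). Apc replicate 3 (triangles) lies lowest for Col1a1, at 14.4 FPKM, and for most stromal genes but not for Col9a3, at 23.5 FPKM, and only Col14a1 and Col11a2 show groups that do not overlap.

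The sums of marker lists also varied between tumours. The 11 fibroblast markers summed to 53.2 to 112 FPKM in Taf4 KO Apc and to 127 to 192 FPKM in Apc tumours, with 0 of 8 genes called and 5 of the 8 above 0 (median log2 0.08). Ly6a had 58.3, 28.6 and 46.0 FPKM in Taf4 KO Apc, against 82.1, 87.8 and 174 FPKM in Apc tumours. Without Ly6a the fibroblast sums were 53.4, 24.7 and 38.8 FPKM in Taf4 KO Apc, against 44.9, 48.8 and 17.4 FPKM in Apc tumours, so that the groups overlapped. The 10 smooth muscle markers summed to 132 to 195 FPKM in Taf4 KO Apc and to 196 to 548 FPKM in Apc tumours, and all 10 had a log2 difference below 0, with a median of -1.04 and 6 at an unadjusted p under 0.05 (limma), none of which held after adjustment. The epithelium markers summed to 7319 to 9101 FPKM in Taf4 KO Apc and to 8694 to 12500.2 FPKM in Apc tumours. The 10 immune markers summed to 72.8 to 114 FPKM in Taf4 KO Apc, and to 322, 61.8 and 44.7 FPKM in Apc replicates 1 to 3. Apc replicate 1, the library that set the direction of Col16a1, thus stood apart in immune markers. No marker of the 6 lists was at 0 in all libraries. The collagen sums were 445, 220.4 and 348 FPKM in Taf4 KO Apc, against 354, 364 and 156 FPKM in Apc tumours, so that the groups overlapped. The part of the makeup of the tumours in these values was not tested.

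The ratio of chains that share a trimer varied less than their levels for the abundant pairs. On the FPKM scale, which is per length, Col4a1 stood at 1.46 to 1.47 times Col4a2 in Taf4 KO Apc and at 1.33 to 1.501 times in Apc tumours, while the level of Col4a1 itself spanned 3.43-fold. Col6a1 stood at 1.04 to 1.0985 times Col6a2 in Taf4 KO Apc and at 1.12 to 1.26 times in Apc tumours, and Col1a1 at 1.56 to 1.97 times Col1a2 in Taf4 KO Apc and at 1.33 to 1.69 times in Apc tumours. The ratio ranged more widely for the scarcer type IV chains, with Col4a5 at 3.92 to 5.55 times Col4a6 in Taf4 KO Apc and at 2.64 to 5.24 times in Apc tumours, and Col4a3 at 0.98 to 1.36 times Col4a4 in Taf4 KO Apc and at 0.70 to 1.36 times in Apc tumours. Col4a6 had only 16 to 86 reads per library and Col4a4 8 to 36, so that the spread of these ratios may be that of few reads. In tissue, as CPM per kilobase of merged exons, Col4a1 stood at 0.47 times Col4a2 in embryo KO, 0.48 times in embryo WT and 0.37 times in adult KO and WT. Col1a1 stood at 18.2 times Col1a2 in embryo KO, 16.3 times in embryo WT, 7.68 times in adult KO and 7.98 times in adult WT. On single means it cannot be said whether KO and WT differ in these ratios. The tissue and tumour tables rest on different gene models and libraries, so that their ratios cannot be set against each other.

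Most genes that fold and modify collagen chains had a higher mean in embryo KO. Of 17 counted, 14 were higher in KO (median log2 0.66) and 1 was past 2-fold higher, where 1.32% of all genes were: Plod2, the telopeptide lysyl hydroxylase, had 1131 normalized counts in embryo KO and 503 in embryo WT (1.17). Fkbp10 had 1365 in KO and 855 in WT (0.68), P3h1 614 in KO and 386 in WT (0.67), and P4ha2, a prolyl 4-hydroxylase chain, 763 in KO and 481 in WT (0.67). The others were P4hb, the most abundant gene of the list, with 37756 in KO and 54824 in WT (-0.54), Ctage5, with 984 in KO and 1369 in WT, and Ppib, with 1080 in KO and 1178 in WT, so that the sum of the list was lower in KO, at 4677 CPM against 5143 in WT. All 5 lysyl oxidase genes, which cross-link collagen, had higher means in embryo KO (median 0.70), with Lox at 969 in KO and 575 in WT and Loxl2 at 2595 in KO and 1599 in WT. In adults the cross-linking list had a median of -0.23 and the folding list of -0.08. Between ages 10 of 17 folding genes and 2 of 5 cross-linking genes were past 2-fold lower in adult WT than in embryo WT, where 14% of all genes were. Lox had 65.4 in adults and 575 in embryos (-3.12).

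In organoids some of the same enzymes had higher counts than any collagen. In the order control, 4-OHT and EPZ, Plod2 had 141, 0.31 and 435 normalized counts and P4ha2 699.7, 62.5 and 592. Mmp7, a matrix metalloproteinase made by Paneth cells, had 1583, 27.8 and 244, and Timp2, an inhibitor of such proteases, 65.7, 20.3 and 417. In whole ileum Mmp7 had 495 in adult KO and 2583 in adult WT (log2 -2.38). Of the basement membrane partners that reached 20 in any organoid group 5 of 9 had their maximum in 4-OHT, 3 in control and 1 in EPZ, and of the hemidesmosome genes 4 of 5 in 4-OHT. The share of all genes with their maximum in 4-OHT was not computed, so these counts cannot set the lists apart from other genes. Lama5, a laminin chain, had 1361, 689 and 818, and Itga6, the integrin partner of Itgb4, 2175, 1603 and 2346. Lama3 had 21.9, 116 and 11.9, the basement membrane glycoprotein Nid2 59.5, 119.8 and 25.4, and Plec, the hemidesmosome linker plectin, 403, 912 and 146. Of the receptor list Ddr1, a collagen-binding receptor kinase, had 1375, 1526 and 579.7, and Itga2, an integrin chain for collagen, 138, 56.9 and 103. Pcolce, which speeds the cleavage of procollagen, had 64.6, 131 and 29.4.

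The remaining lists stood as follows. Of the 12 fibril partner genes all were counted in embryos and had a higher mean in KO (median 0.52), among them Sparc, a collagen chaperone of the matrix, at 22954 in KO and 13900.3 in WT. The receptor Itga11, an integrin chain of fibroblasts, had 111 in embryo KO and 45.3 in embryo WT (1.27). Of 15 basement membrane partners 14 had higher means in embryo KO and 1, Lama3, was past 2-fold lower, where 7.47% of all genes were. In adults 2 of 14 were past 2-fold lower in KO, where 5.93% of all genes were, Lama3 and Lamb3 (2122 in KO and 5458 in WT, -1.36). In tumours 0 genes of these 8 lists were called higher or lower by limma. At an unadjusted p under 0.05 there were 3 higher and 2 lower among the 70 genes tested, where 20.7% of all genes were higher and 7.12% lower. The higher ones included P4ha2, at 16.9, 10.9 and 13.6 FPKM in Taf4 KO Apc, against 6.71, 8.82 and 9.63 FPKM in Apc tumours (0.65 ± 0.19 SE, limma, adjusted p = 0.11). Lama3 had 15.2, 12.7 and 12.8 FPKM in Taf4 KO Apc, against 12.6, 44.95 and 52.3 FPKM in Apc tumours (-1.15 ± 0.50 SE, limma, adjusted p = 0.20).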

How the data were processed

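The 27 libraries were grouped by GEO's labels. Per the study's methods and the labels, reads were trimmed with cutadapt 1.10, freed of ribosomal reads with Bowtie2 2.2.8, aligned with STAR 2.5.3a to mm9, counted over Ensembl genes with HTSeq and normalized by the median of ratios. The labels name a stranded poly(A) kit and the methods an amplified cDNA kit. The authors deposited the mean normalized count per group for intestine and organoids, treated as a signal with 1 value per group, and FPKM per library for tumours. The labels list mm9 and mm10, and the annotation behind the tumour table, which has Entrez identifiers, is not given in the sources used here. Columns of the authors' own log2 fold changes and adjusted p-values were not used. Unused per-sample columns numbered 0.

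Ratios of means were taken after adding 1, for genes with at least 20 in the higher mean, and counted past 2-fold. Tumours were tested with limma 3.58.1 in R 4.3.3 on log2(FPKM + 1), with the trend option, over genes that reached 1 FPKM as the mean of either group, adjusted by Benjamini-Hochberg over 13794 genes. A call needed an adjusted p under 0.05 and a log2 difference beyond 1. The fit was tested on simulated data with independent libraries and a fixed spread, which cannot show how it performs on these tumours. FPKM steps gave whole reads for 100% of 21419 genes, used for depth only. Lengths and positions in mm9 came from GENCODE. Same-numbered tumour libraries were not treated as pairs, and their deviations correlated at -0.17, -0.20 and -0.04. With so few libraries, and a possible pool among them, this does not settle whether they were pairs. Every collagen could be named. Full values were given for the 8 highest in tumours and in control organoids and for those past 2-fold with a mean of at least 50, and up to 4 genes per pathway list were chosen by their largest difference at a mean of at least 50. P4hb, Ctage5, Ppib and Lama5 were named in addition, outside this rule. The members and lists were chosen with earlier results of these data known.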

Additional observations from a re-analysis of the deposited data

How the results depend on the processing

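The collagen counts of embryos and organoids depended on the count floor, since few genes are high. In embryos (2 past 2-fold) the count was 1 with at least 100 normalized counts and 4 with means scaled to equal totals. With at least 100 normalized counts no organoid gene was left (0 in each comparison). With at least 5 the count was 6 (2 higher, 4 lower) for 4-OHT over control, against 2, 5 for EPZ over 4-OHT, against 1, and 4 for EPZ over control, against 1. The floor alone decides which genes are counted there. The adult count stayed at 1 and the count between ages at 25 to 32 under all alternatives. The number of stromal genes was 26 to 33 under the 4 alternatives; with embryo WT as the whole tissue Col7a1 became stromal and Col11a2 low, and with a higher limit on the organoid share Col4a3 became stromal. Equal totals moved the median log2 of all genes from 0.02 to -0.31 between ages and from -0.003 to -0.13 for 4-OHT over control, and the share of higher calls over all genes from 30.9% to 43.6% in adults, from 55.9% to 41.2% between ages and from 48.7% to 33.4% for EPZ over control. In tumours the count of collagens called was 0 under the 13 alternatives run. With library numbers as a replicate block, though it is not known that they pair the libraries, it was 0, and over all genes there were 0 calls higher and 1 lower, against 30 higher and 110 lower without the block. Leaving out 1 library gave 0 to 0 collagens, and over all genes 0 to 31 higher and 0 to 163 lower. Without Taf4 KO Apc replicate 3 it was 0 higher and 0 lower. Among the values of single collagens under the alternatives, 767 kept their side of the threshold, 5 moved and 0 reversed as a called value. Only a called value could count as reversed, and no collagen was called in tumours. Changes of sign in tumours, such as those without Apc replicate 3, are therefore not in this tally, and it does not measure how steady directions are. In organoids all but 4 collagens were under 20 normalized counts, and depth per library is unknown there.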
